A study of Saccharomyces cerevisiae with 16 samples.

Results

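TBS1 (YBR150C) and HAL9 (YOL089C) are a pair of duplicated yeast genes that encode zinc cluster proteins, 2 of the 6225 genes on the array. TBS1 was chosen on its own values, the fall of its transcript after induction of ROF1 in these same cultures, and HAL9 was taken as its paralog, whatever its values. For TBS1 the changes from 0 min are therefore given as a description, with no test.

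The arrays followed a haploid MATa strain of the S288C background in which ROF1, a putative transcription factor with a WOPR DNA-binding domain, was placed under an estradiol-responsive promoter at its own locus. Every sample of it carried barcode::URA3::Z3EVpr-ROF1 and the Z3EV activator under the ACT1 promoter, inserted with natMX beside HAP1. The strain also had the markers ura3∆0, lyp1∆ and his3∆1, and can1∆ replaced by STE2pr-Sphis5. Both cultures, A and B, were grown to steady state in phosphate-limited chemostats, sampled at 0 min, given 1 µM β-estradiol, and sampled again at 5, 10, 15, 20, 30, 45 and 90 min. Each of the 16 arrays held 1 sample labelled in red (Cy5) against the reference strain DBY12001, also S288C, labelled in green (Cy3). A strain without the ROF1 construct and a culture given no estradiol were not analysed here, so ROF1, the hormone and time in culture cannot be told apart. ROF1 itself rose by 3.49 in culture A and 3.36 in culture B on the log2 scale at 5 min, and lay between 3.36 and 4.54 above its 0 min level on all 14 later arrays.

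Zinc cluster proteins are a fungal family of transcription factors whose DNA-binding domain is folded around zinc ions held by cysteines. Gal4 is the best known of them. TBS1 takes its name from the thiabendazole sensitivity of its deletion mutant, thiabendazole being a drug that blocks microtubule assembly, and little is known of the genes it controls. HAL9 was found as a gene whose extra copies raise tolerance to salt, in part through ENA1, a sodium pump of the plasma membrane. The pair is a relic of the whole-genome duplication of an ancestor of budding yeast.

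TBS1 transcript fell in both cultures and HAL9 transcript stayed near its starting level. In culture A the red signal of the TBS1 probe, in arbitrary intensity units, at 0, 5, 10, 15, 20, 30, 45 and 90 min was 1297, 1405, 1278, 799, 623, 372, 210 and 131, respectively. In culture B it was 1286, 1307, 924, 592, 521, 353, 202 and 140 at the same times. The signal was high on the arrays of 0 and 5 min and low on those of 45 and 90 min in both cultures, and the green signal of the same probe, from the reference strain, stayed between 1013 and 1300 on all 16 arrays. The lowest green values lay on the arrays of 10 and 15 min of culture B, and without those the lowest was 1118.

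**Figure D1:**
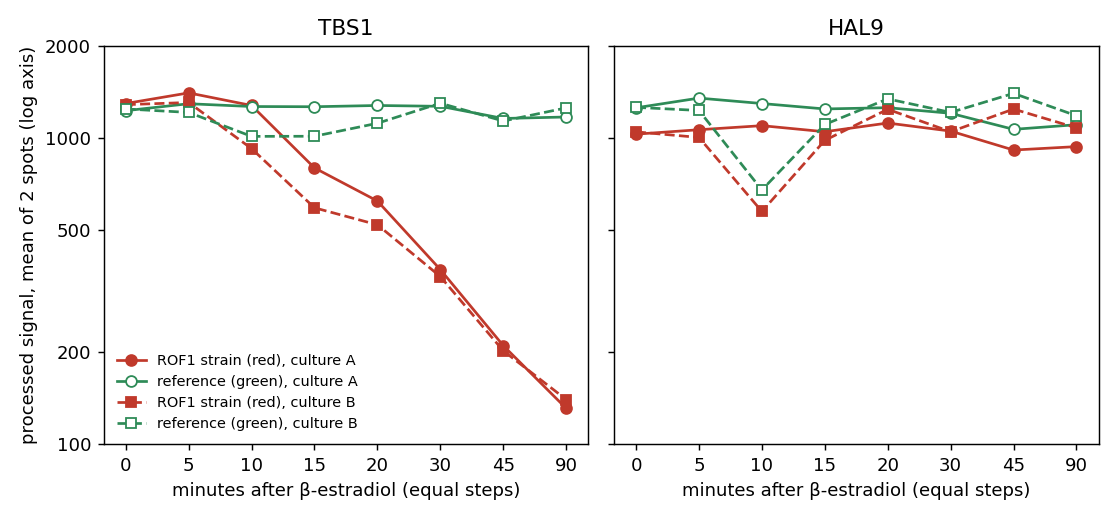
Processed signal of the TBS1 probe (left) and the HAL9 probe (right) on each array, as the mean of 2 spots on a log axis, against the 8 sampling times in equal steps. Filled red symbols are the ROF1 strain and open green symbols the reference strain, with circles for culture A and squares for culture B. TBS1 red signal went from 1297 and 1286 at 0 min to 131 and 140 at 90 min, and its green signal stayed between 1013 and 1300.

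All further values are log2 ratios of red over green within a spot, averaged over the 2 spots of a probe, or changes of that ratio from the 0 min array of the same culture. For TBS1 the ratio in culture A, from 0 to 90 min in order of time, was 0.07, 0.11, 0.01, −0.67, −1.04, −1.77, −2.46 and −3.16. In culture B it was 0.05, 0.11, −0.15, −0.70, −1.10, −1.88, −2.49 and −3.17. Ordered by mean ratio, the times ran 5, 0, 10, 15, 20, 30, 45 and 90 min, and no 2 neighbours in this order overlapped between cultures. The gap between 5 min (mean 0.11) and 0 min (mean 0.06) was the smallest.

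As changes from 0 min, the mean of the cultures was 0.05 ± 0.01 at 5 min (SD, n = 2, as for the values that follow), then −0.13 ± 0.09 at 10 min and −0.75 ± 0.00 at 15 min. By 20 min it was −1.13 ± 0.03, by 30 min −1.89 ± 0.06, by 45 min −2.54 ± 0.00 and by 90 min −3.23 ± 0.02. TBS1 transcript thus stood at 59.7% of its 0 min ratio after 15 min and at 45.7% after 20 min. The share was 27.0% after 30 min, 17.2% after 45 min and 10.7% by the last sample, which is 9.36-fold lower. Among the 6046 genes with a measurable signal, its change ranked 4253rd from the lowest at 5 min and 1000th at 10 min. It ranked 4th at 15 and 20 min, 2nd at 30 min and 1st at 45 and 90 min.

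**Figure D2:**
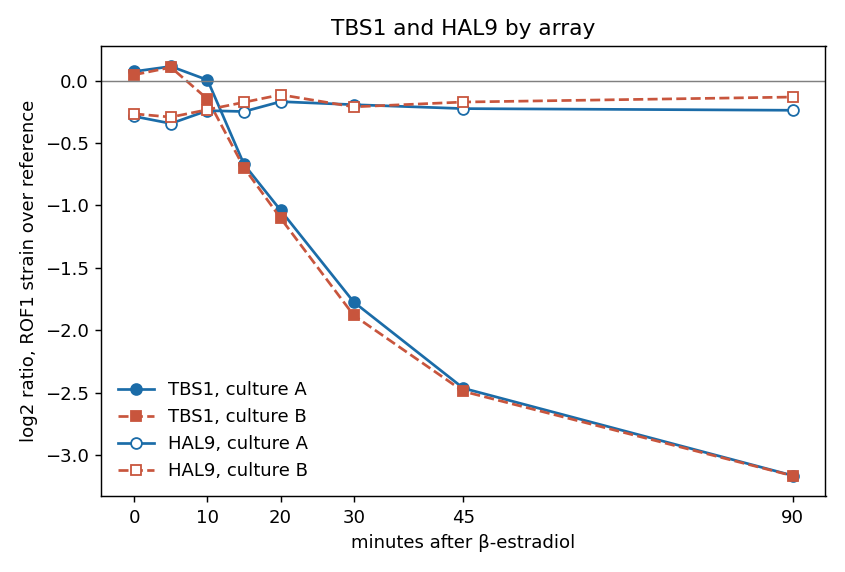
Log2 ratio of the ROF1 strain over the reference strain for TBS1 (filled symbols) and HAL9 (open symbols) against minutes after β-estradiol, with 1 line for each culture (A solid circles, B dashed squares). TBS1 reached −3.16 and −3.17 at 90 min, and HAL9 stayed between −0.34 and −0.11 throughout.

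The fall had a delay, a steep phase and a slow phase. Between 0 and 5 min the TBS1 ratio moved by 0.00996 per min on average, and between 5 and 10 min by −0.0362 per min. The steepest interval in both cultures was 10 to 15 min, at −0.135 per min in A and −0.110 per min in B. At that mean rate, −0.122 per min, a level would halve every 8.2 min. The rate was −0.0772 per min from 15 to 20 min and −0.0756 per min from 20 to 30 min, so a level would halve every 13.0 and 13.2 min. It was −0.0434 per min from 30 to 45 min (23.0 min) and −0.0153 per min from 45 to 90 min (65.4 min). The arrays of 0 to 15 min lay in the first row of each slide and those of 20 to 90 min in the second. The step from 15 to 20 min thus crossed rows. So did every change from 0 min at 20, 30, 45 and 90 min, for HAL9 and all other genes as well. The part of the rows in these values was not tested.

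The change of TBS1 reached its midpoint, 0.5 of its 90 min value on the log2 scale, after 26.9 min (culture A) and 25.9 min (culture B), with a mean of 26.4 ± 0.72 min. Of the 59 other genes that were lower at 90 min by at least 1 on the log2 scale and past an adjusted p of 0.05 in limma, the midpoints ran from 6.21 to 70.1 min with a median of 32.1 min, and 16 lay before that of TBS1. With this processing TBS1 had thus the deepest fall at 90 min of all genes tested but not the earliest midpoint. Neither its rank nor the count of 16 was redone under other processing.

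The 2 spots of the TBS1 probe both fell over the course. In culture B they parted at 10 and 15 min, so its early slopes are means over differing spots. Both were well above background in red on all 16 arrays, with every mean red signal above the floor of 50 set on the intensities. The second spot gave the higher ratio on 11 of 16 arrays, and the spots differed by between −0.29 and 0.47. The widest gap was on the 10 min array of culture B, where the first spot read −0.38 and the second 0.09. On the 15 min array of culture B the spots differed more in brightness than in ratio: red was 823 and 362 and green 1507 and 520, with ratios of −0.87 and −0.52. The former array had the lowest median red signal of the series, 931 against at most 1417, and the latter the most outlier spots, 183.

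HAL9 was level by comparison. Its red signal in culture A, in order of time, was 1030, 1065, 1098, 1049, 1120, 1054, 914 and 938. In culture B it was 1048, 1005, 576, 983, 1242, 1049, 1244 and 1080, and the low value at 10 min stood beside a green signal of 677 on that dim array. The ratio of HAL9 lay between −0.34 and −0.11 on all 16 arrays, a range of 0.23 against 3.28 for TBS1. Ordered by mean ratio, the times ran 20, 90, 45, 30, 15, 10, 0 and 5 min, and the neighbours in that order overlapped between cultures from 20 min through to 10 min. The ratios at 0 min (−0.29 and −0.27) and at 5 min (−0.34 and −0.29) lay below those of every other time.

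The changes of HAL9 were small and above 0 from 10 min on. From 5 to 90 min their means were −0.04, 0.04, 0.07, 0.14, 0.08, 0.08 and 0.09, and HAL9 was above its 0 min ratio on 12 of 14 later arrays. In limma the change passed an adjusted p of 0.05 at 20 min (adjusted p = 0.014, 95% interval 0.07 to 0.20, culture A 0.12, culture B 0.15) and at 90 min (adjusted p = 0.0267, interval 0.03 to 0.15, culture A 0.05, culture B 0.13). At the other 5 times the limma adjusted p lay between 0.092 and 0.364. The mean of the 7 later times was 0.06 above 0 min (limma adjusted p = 0.0565, interval 0.02 to 0.11). The moderated F test over the 7 times gave an adjusted p of 0.0112 for HAL9, as it did at or under 0.05 for 50.6% of all genes tested.

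Calls of this kind were common. Of the 6046 genes tested, limma called, in either direction and in order of time, 19.7%, 24.5%, 18.9%, 15.5%, 11.5%, 16.7% and 40.7% at the 7 later times and 24.3% in their mean. Both calls of HAL9 are read against those shares, and its change at 90 min ranked 4256th from the lowest of 6046. The HAL9 change at 90 min lost its call without either 0 min array (adjusted p = 0.0646 for A and 0.138 for B in limma) or the 90 min array of culture B (0.189), and without the culture as a block (0.0948). With the red channel alone the 90 min change of HAL9 was 9.33e-05. The 20 min call of HAL9 was lost in 6 of 28 alternatives: without the 0 min array of A (limma adjusted p = 0.054) or B (0.0789), the 20 min array of A (0.0631) or B (0.0791), or the block (0.0511), and in the red channel alone (1).

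The difference between the paralogs, the TBS1 change minus the HAL9 change on the same array, was 0.09 ± 0.01 at 5 min (SD, n = 2) and −0.17 ± 0.08 at 10 min. It reached −0.81 ± 0.04 at 15 min and −1.27 ± 0.05 at 20 min. It was −1.96 ± 0.03 at 30 min, −2.62 ± 0.02 at 45 min and −3.32 ± 0.04 at 90 min, where TBS1 had dropped 9.97-fold relative to HAL9. No test is given, because the fall of TBS1 that led to its choice is part of the difference. Across the 14 later arrays the changes of the paralogs had a Pearson r of −0.53 (−0.44 in culture A, −0.64 in culture B), as a description, since the arrays of a culture share its 0 min array. In RNA of a whole culture, fewer cells that hold a transcript and less of it per cell cannot be told apart.

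Before induction the paralogs differed in how the ROF1 strain compared with the reference strain. The TBS1 ratio at 0 min was 0.07 and 0.05 (mean 0.06 ± 0.02, 104% of the reference), which limma did not separate from 0 (adjusted p = 0.178). These 0 min arrays are also part of the change on which TBS1 was chosen, so that p-value is not free of the choice. The HAL9 ratio was −0.29 and −0.27 (mean −0.28 ± 0.01, 82.6% of the reference, limma adjusted p = 7e-05). Of all genes tested, 49.6% passed an adjusted p of 0.05 in this comparison, 1438 lower and 1563 higher than the reference. Red was always the ROF1 strain, so a dye effect and a strain difference cannot be told apart at 0 min, whereas a constant dye effect cancels in a change between times.

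None of the other listed zinc cluster genes fell as far as TBS1 by 90 min, the contrast on which TBS1 was chosen. At 90 min, 20.0% of all genes tested were lower and 20.7% higher at a limma adjusted p under 0.05. Of the 54 listed zinc cluster genes besides TBS1, 8 were lower (14.8%), 10 were higher (18.5%) and 36 did not pass, with a median change of 0.00226 beside 0 for all genes. SUT2, which acts with SUT1 in sterol uptake, was the one member of the 54 past 2-fold, at −1.63 (−1.65 in culture A, −1.61 in culture B, limma adjusted p = 2.31e-07). From 5 to 45 min its changes were −0.16, −0.22, −0.40, −0.60, −0.86 and −1.21.

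The remaining lower zinc cluster genes fell by less. They were GSM1, a putative regulator of energy metabolism (−0.50), YPR196W, a putative maltose-responsive activator (−0.47), ECM22, an activator of sterol synthesis genes (−0.44), EDS1, of unknown role (−0.42), MAL13, a maltose activator (−0.31), YLR278C (−0.23) and OAF3, a repressor of oleate-responsive genes (−0.19). Limma adjusted p-values of these 7 lay between 7.5e-05 and 0.0211. YPR196W belongs with MAL13 to a family of close copies, and whether their probes read each other's transcripts was not tested.

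The 10 higher zinc cluster genes rose by at most 0.44. That was SUT1, the sterol uptake regulator (limma adjusted p = 0.00291), followed by HAP1, the heme-responsive activator whose locus carries the Z3EV construct (0.24), ASG1, a regulator of stress response genes (0.23), UPC2, an activator of sterol synthesis and uptake (0.21, adjusted p = 0.0452, a call lost in 14 of 28 alternatives), and RDR1, a repressor of drug resistance genes (0.21). PDR3, an activator of drug efflux pumps (0.20), DAL81, an activator of nitrogen catabolism genes (0.17), and STB4 (0.13) passed as well, as did LEU3, the regulator of leucine synthesis (0.10), and HAL9 itself (0.09). HAL9 ranked 31st of the 54 by absolute change at 90 min. Leaving out 1 array lowered the count of higher genes to 5 (0 min, culture A), to 6 (0 min, culture B) or to 4 (90 min, culture B). Without the arrays of 10 and 15 min of culture B, 9 were lower and 9 higher. Shares of all genes called in the fits with arrays left out are not given here.

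**Figure D3:**
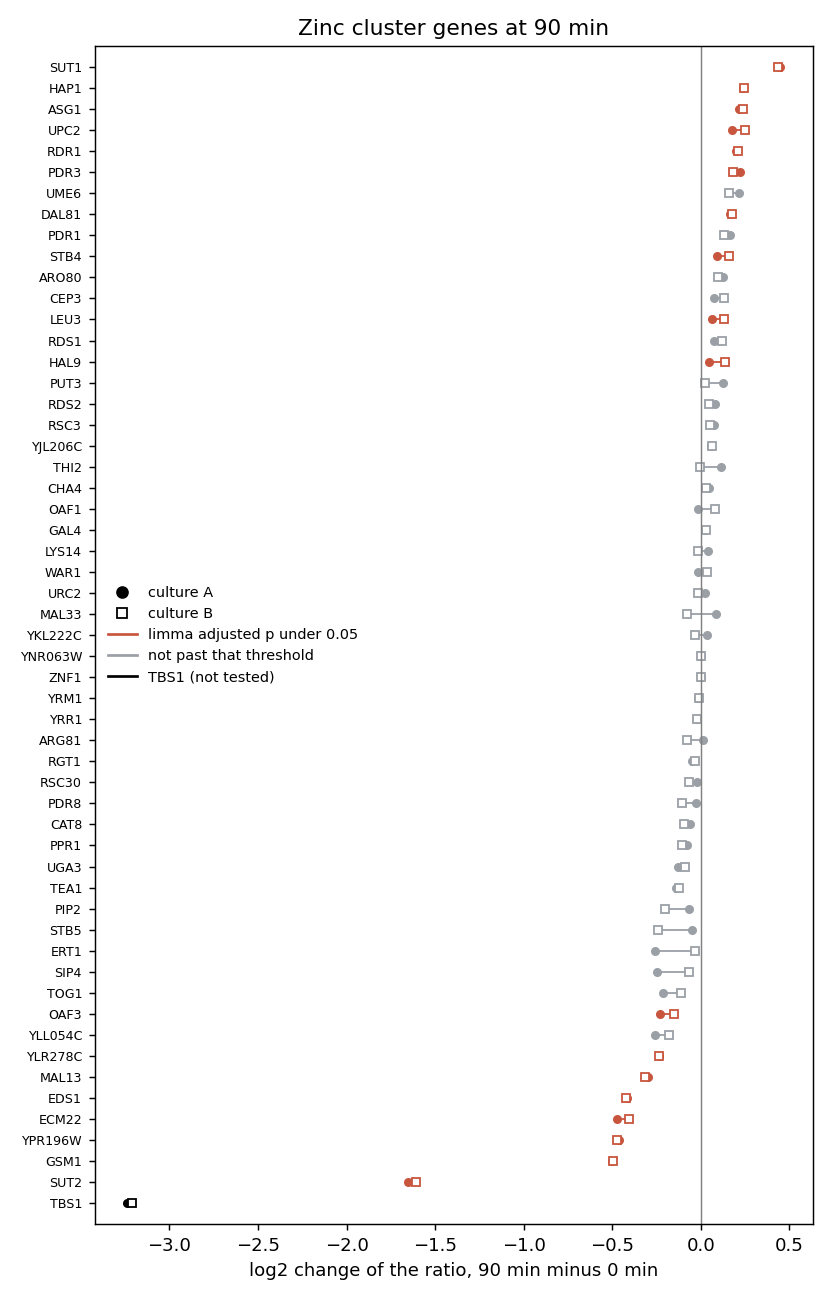
Change of the log2 ratio from 0 to 90 min for the 55 listed zinc cluster genes, 1 row each, with a filled circle for culture A and an open square for culture B. Orange marks the 18 genes past a limma adjusted p of 0.05, grey the 36 that did not pass, and black TBS1, which was not tested; TBS1 lies at −3.24 and −3.21 and SUT2 next at −1.65 and −1.61.

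Within other pairs of duplicated zinc cluster genes, the changes at 90 min also differed, by less than within TBS1 and HAL9. SUT1 minus SUT2 was 2.07 ± 0.04 (SD, n = 2) and UPC2 minus ECM22 was 0.65 ± 0.01, and in each of these pairs the first gene rose and the second fell. RGT1, the repressor of glucose transporter genes, minus EDS1 was 0.38 ± 0.02. OAF1 minus PIP2, the oleate-responsive activators, was 0.16 ± 0.16, and RSC3 minus RSC30, subunits of the RSC chromatin remodelling complex, was 0.11 ± 0.02. PDR1 minus PDR3 was −0.05 ± 0.00, and −0.24 in the red channel alone. None of these differences was tested.

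**Figure D4:**
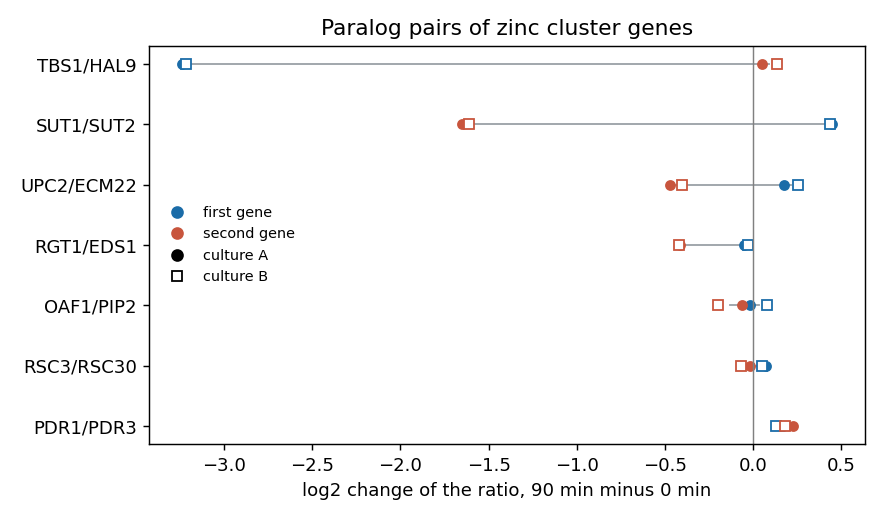
Change of the log2 ratio from 0 to 90 min for both genes of 7 pairs of duplicated zinc cluster genes, ordered by the size of the difference. Blue is the first gene named and orange the second, with circles for culture A and open squares for culture B; the members of TBS1/HAL9 lay 3.32 apart and those of PDR1/PDR3 0.05 apart.

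The genes beside TBS1 on chromosome II changed far less than TBS1. APD1 (YBR151W), which encodes an iron-sulphur protein and is divergent from TBS1, so that both start at the same intergenic stretch, stood at 0.18 at 5 min (limma adjusted p = 0.0532) and was higher by 0.18 at 10 min (0.0494). It was lower by −0.28 at 30 min (limma adjusted p = 0.0165), −0.31 at 45 min (0.00759) and −0.52 at 90 min (0.000159, with −0.60 in culture A and −0.44 in culture B). ARA1 (YBR149W), an arabinose dehydrogenase convergent with TBS1, rose early, by 0.33 at 10 min (0.43 and 0.23, limma adjusted p = 0.00106), and was at −0.15 at 90 min (−0.12 and −0.18, adjusted p = 0.0247). The change of ARA1 at 90 min lost its call without each of 3 single arrays and in the red channel alone. That of APD1 was also lost in the red channel alone (−0.50, limma adjusted p = 0.058).

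Beside HAL9 on chromosome XV, MPD2 (YOL088C), a protein disulphide isomerase of the endoplasmic reticulum in tandem with HAL9, was higher by 0.22 at 90 min (0.24 and 0.19, limma adjusted p = 0.00545) and did not pass at the other 6 times. In the red channel alone the 90 min change of MPD2 was 0.41 and did not pass (limma adjusted p = 0.0914). Orientation is taken from the strand letter of the systematic names.

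Genes tied to what the paralogs are known for moved by at most 0.49 at 90 min. Of 19 salt tolerance genes, 6 were lower at 90 min (31.6%) and 1 was higher (5.26%), with a median of −0.05, beside 20.0% lower and 20.7% higher among all genes tested. ENA1, the sodium pump through which HAL9 acts, was at −0.17 (culture A −0.22, culture B −0.11, limma adjusted p = 0.00562), and ENA2 at −0.14 (adjusted p = 0.0301). ENA1, ENA2 and ENA5 are near-identical tandem copies, and how their probes divide the transcripts is uncertain. The others lower were HAL1 (−0.31), MET22, a phosphatase inhibited by sodium (−0.30), SIS2, an inhibitor of the PPZ1 phosphatase (−0.20), and NHA1, a sodium-proton antiporter (−0.19), and CRZ1, the transcription factor activated by calcineurin, was the one higher (0.14), with limma adjusted p-values between 6.51e-05 and 0.0226. In the red channel alone none of the 7 calls was kept (0 of 7), though all 7 kept their direction. HAL1 was then at −0.40, CRZ1 at 0.25, ENA1 and ENA2 at −0.20, MET22 at −0.16, and SIS2 and NHA1 at −0.07. The share of all genes called in that setting is not given here. With 1 array left out, ENA2 lost its call without the 0 min or the 90 min array of culture A (−0.07 and −0.09, adjusted p = 0.184 and 0.205 in limma), and NHA1 and CRZ1 lost theirs without 3 arrays each.

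Of 19 genes for tubulins, their folding and microtubule binding, 2 were lower at 90 min (10.5%) and 7 higher (36.8%), with a median of 0.09, beside the same 20.0% and 20.7% of all genes tested. The plus-end and spindle proteins BIM1 (0.49), STU2 (0.46) and STU1 (0.37), the tubulin folding factor CIN2 (0.34), the α-tubulin gene TUB1 (0.34), the β-tubulin gene TUB2 (0.28) and the γ-tubulin gene TUB4 (0.25) rose, with limma adjusted p-values between 4.86e-05 and 0.00926. The tubulin folding cofactor PAC2 (−0.27) and the prefoldin subunit GIM4 (−0.19) fell (adjusted p = 0.0156 and 0.0252). At the earlier times limma called 0 of the 19 at 5, 15 and 30 min, 2 lower at 10 min, 1 lower at 20 min and 2 higher at 45 min, where 19.7%, 18.9%, 11.5%, 24.5%, 15.5% and 16.7% of all genes were called in either direction. In the red channel alone 0 of the 9 calls at 90 min were kept, with CIN2 at 0.07 and TUB4 at 0.03. There STU1 was at 0.55, STU2 at 0.48, BIM1 at 0.46, TUB1 at 0.45, TUB2 at 0.40, PAC2 at −0.26 and GIM4 at −0.24. These kept their direction without passing the threshold. The share of all genes called in the red channel alone is not given here. With single arrays left out, the call was lost for GIM4 without 4 of the 16, for PAC2 without 3, for TUB4 without 2 and for TUB2 without 1.

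Several genes followed the same course as TBS1 at smaller amplitude. Over the changes on the 14 later arrays, and among 5591 genes whose red signal was well above background on all 16 arrays, the 8 with the highest Pearson r to TBS1 were MIT1, SFG1, ZPS1, SUR2, DSE4, PHD1, BDH2 and STE4, with r from 0.998 down to 0.992 (from 0.976 down to 0.878 in the red channel alone). A value of r over 0.95 was reached by 112 genes and over 0.99 by 11. These r values are a description over arrays that share their culture and 0 min array.

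MIT1, a WOPR-domain regulator of pseudohyphal growth and as such a relative of ROF1, changed by −0.51 at 15 min, −0.93 at 20 min and −1.56 at 30 min, and reached −2.54 (−2.51 in culture A and −2.58 in culture B). At 20 min it had covered 36.7% of its 90 min change, against 35.1% for TBS1. SFG1, a regulator of filamentous growth, moved earlier, with −0.22 at 5 min and −0.39 at 10 min, and reached −2.87 at 90 min. PHD1, also a regulator of pseudohyphal growth, reached −1.49.

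The other genes in this group have roles at the cell surface, in lipid synthesis and in mating. ZPS1, a cell wall protein that responds to zinc and pH, reached −1.84 at 90 min, DSE4, a glucanase that separates daughter from mother cells, −1.63, and SUR2, a hydroxylase of sphingolipid synthesis, −1.48. STE4, the β subunit of the mating pheromone G protein, reached −0.96. BDH2, a putative alcohol dehydrogenase, rose first, by 0.71 at 5 min (culture A 0.80, culture B 0.62), and then fell to −2.40, with its midpoint at 38.0 min, so a high r did not mean the same timing. At 20 min ZPS1, SUR2, DSE4 and STE4 had covered between 35.0% and 37.7% of their 90 min change, SFG1 45.9%, PHD1 43.5% and BDH2 11.4%.

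**Figure D5:**
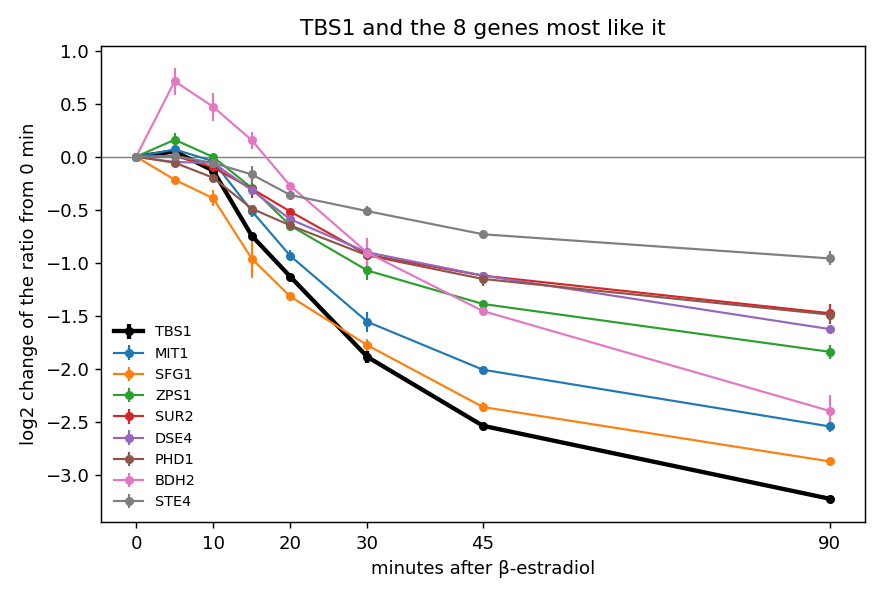
Change of the log2 ratio from 0 min, as the mean of cultures A and B with bars for 1 SD (n = 2), against minutes after β-estradiol, for TBS1 (black) and the 8 genes with the highest Pearson r to it. TBS1 fell deepest, to −3.23, STE4 reached −0.96, and BDH2 was at 0.71 at 5 min before it fell.

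For HAL9 the 5 genes with the highest r were OAC1, the mitochondrial oxaloacetate carrier (0.92), SCM4, a protein of the mitochondrial outer membrane (0.89), IBD2, of the spindle checkpoint (0.85), MRS6, the Rab escort protein (0.84), and FZO1, the mitofusin (0.83). Their mean changes at 90 min were 0.00, 0.23, −0.05, 0.09 and 0.05. With HAL9 itself moving by at most 0.15 on any array, these r values rest on small differences between arrays. In the red channel alone they were 0.11 for OAC1, 0.20 for SCM4, 0.30 for IBD2, 0.76 for MRS6 and 0.47 for FZO1.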

How the data were processed

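Per the file headers, the authors extracted spot intensity with Agilent Feature Extraction 12.0.1.1, whose processed signals are background subtracted and dye normalized. The authors also deposited the log2 of red over green, computed with both colours floored at 50; 0 spots differed from the ratio recomputed here by over 1e-04. Outlier spots (3 to 183 per array) were left out, 2 spots per probe were averaged, and the brightest probe was taken per gene. Genes with red well above background on at least 2 of 16 arrays entered the test (6046), by limma 3.58.1 under R 4.3.3, with time as a factor and culture, which is also the slide, as a block, and Benjamini-Hochberg adjustment over all of them. Ratios at 0 min were tested without the block. The fit left 7 residual degrees of freedom and was first run on simulated data with independent noise on each array. Such data cannot show how serial samples of a culture affect the p-values. P-values of the changes weigh the mean change from 0 min against a residual spread. That spread is how far the courses of the 2 cultures differ once a constant difference between them is removed. Serial arrays of a culture count as independent in the fit, and the number of cultures limits the precision.

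Culture letters come from the labels, each culture being sampled in turn. Deviations from the time means had a median r of 0.148 between arrays of the same culture and −0.148 between cultures. At each time the deviations of cultures A and B are equal and opposite. The value between cultures therefore follows from the value within them and is no separate check of the letters.

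Named genes are TBS1, HAL9, ROF1, the nearest gene on either side of each paralog (1 of them is not reported here), the 8 genes most like TBS1 and 5 most like HAL9, the 8 largest called changes in each direction of each list, and members of the paralog pairs. LEU3 falls outside this rule and was named to complete its count. The members and lists were chosen with earlier results of these data known. Names (5720 of 6225 genes) and neighbours come from RefSeq assembly R64, while the file headers give sacCer2, so no coordinates are printed. Promoter and protein sequences were not analysed here.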

Additional observations from a re-analysis of the deposited data

How the results depend on the processing

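With only 2 cultures and 7 residual degrees of freedom, changes as small as those of HAL9 rest on single arrays. The TBS1 change at 90 min was −2.655 with intensities floored at 200 and −2.62 after normexp and loess. TBS1 minus HAL9 was then −2.75 and −2.71, and −3.21 in the red channel alone, and the midpoint came at 22.6 and 24.2 min. The HAL9 change at 90 min was 0.0919 but no longer past the limma threshold with no floor (adjusted p = 0.0706), under the stricter filter on dim probes (0.0819) and without the replicate block (0.0948), and it was 0.0915 after normexp and loess (0.113). In the red channel alone it was 9.33e-05 (adjusted p = 1). Under the other alternatives it kept its call, apart from single arrays left out. The lower zinc cluster genes numbered 13 after normexp and loess, 3 in the red channel alone and 1 at 2-fold, and the higher ones 0 in both of the latter settings. Of the named salt tolerance and tubulin genes, 0 of 7 and 0 of 9 kept their call in the red channel alone, where RDR1 was at −0.0142 (adjusted p = 0.973), and YPR196W was at 0 with intensities floored at 200. Shares of all genes called under the alternatives are not given here, so no count under them is read as a result about a list. The floor of 200 replaced the red TBS1 signals at 90 min, which were 131 for A and 140 for B. The lowest red signal of YPR196W, 101, also lay under that floor. The cause of the other shifts was not tested. Leaving out each array in turn gave −3.25 to −3.20 for TBS1 at 90 min, 25.9 to 27.6 min for its midpoint, 0.0563 to 0.127 for HAL9 at 90 min and 0.0502 to 0.077 for its mean of later times. That mean passed without the 30 min array of culture A (limma adjusted p = 0.0452) or B (0.0249) or the 90 min array of culture A (0.031). TBS1 minus HAL9 ran from −3.345 to −3.29, lower zinc cluster genes from 7 to 9 and higher ones from 4 to 11. Both 0 min results kept their side of the threshold in all 27 alternatives run for them. Chosen after seeing the data, the fit without the arrays of 10 and 15 min of culture B kept HAL9 at 90 min past the threshold (adjusted p = 0.0414). Without the replicate block no call of the members at 5, 10, 15, 30 or 45 min changed.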
